A study of Mus musculus with 12 samples.

Results

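The genes described here are 10 injury-signal genes of the retina, namely the ligands Lif, Edn2, Fgf2, Bdnf and Cntf, the receptor subunits and receptors Il6st, Osmr and Ednrb, the transcription factor Stat3 and its feedback inhibitor Socs3. They were chosen by name from the 53707 genes of the deposited gene table, and all 10 had enough counts to be tested. RNA was measured in retinas of wild-type C57BL/6J mice, dissected at postnatal day 28 without sclera and retinal pigment epithelium, and kept for 48 hours in Neurobasal-A medium with either 5 mM or 25 mM glucose. Both groups shared the strain, age and medium supplements, and neither carried an engineered allele. Each group had 3 biological replicates with 2 technical replicates apiece, the first in batch 1 and the second in batch 2, for 12 libraries. The labels do not say whether a technical replicate was a second library, retina or culture. A retina in culture has no blood flow and its optic nerve is cut, and whether biological replicates came from separate animals is not stated in the labels, so that p-values measure the spread between these samples.

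When photoreceptors are stressed, Müller glia and neurons of the retina exchange a known set of signals. LIF (leukemia inhibitory factor) and CNTF (ciliary neurotrophic factor) act through receptor complexes that contain gp130, the product of Il6st, and Osmr encodes the oncostatin M receptor subunit that also pairs with gp130. Activated gp130 leads to phosphorylation of STAT3, which induces Socs3, and SOCS3 in turn restrains the receptor complex. Edn2 encodes endothelin 2, a peptide that damaged photoreceptors are known to make, and Ednrb encodes the endothelin receptor type B carried by Müller glia. FGF2 and BDNF are neurotrophic factors with known protective effects on photoreceptors and ganglion cells.

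Library totals lay between 17998905 and 36692484 estimated counts at 5 mM glucose and, at 25 mM, between 14815285 and 23129541. Technical replicates were summed, and levels are given as CPM, the counts of a gene scaled to the total of its library, with TMM factors that correct for library composition. Technical replicates of a sum could differ widely. In 25 mM replicate 2, Lif was at 15.95 CPM in batch 1 and 136 CPM in batch 2, and in 5 mM replicate 1, Edn2 was at 4.49 and 21.2 CPM. The retina label was checked with marker lists. Rod markers (9 genes, among them Nrl) summed to between 1843 and 4723 CPM in the 6 replicates, and markers of the retinal pigment epithelium to between 1.34 and 3.51 CPM, with 4 of 6 genes tested.

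Of the 10 genes, Edn2 was the single one that passed the threshold, an FDR (Benjamini-Hochberg adjusted p over 21061 genes) under 0.05 in edgeR's quasi-likelihood test. It rose 3.97-fold at 25 mM glucose. Over all genes tested, 1.98% passed (1.47% higher and 0.513% lower at 25 mM). In the stricter call, an FDR under 0.01 with a fold change over 2, 0 of the 10 genes and 0 of all genes passed. Fitted changes were above 0 in 2 genes, Edn2 and Fgf2, and below 0 in the other 8. The median over the 10 genes was -0.28 on the log2 scale, against -0.01 over all genes tested. The replicates of the 2 concentrations did not overlap in 5 of the 10 genes, 2 higher and 3 lower at 25 mM, where 31.8% of all genes tested did not overlap (16.0% higher and 15.8% lower). An unadjusted p under 0.05 was found in 5 of the 10, where the share over all genes was 28.7% (edgeR).

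**Figure D1:**
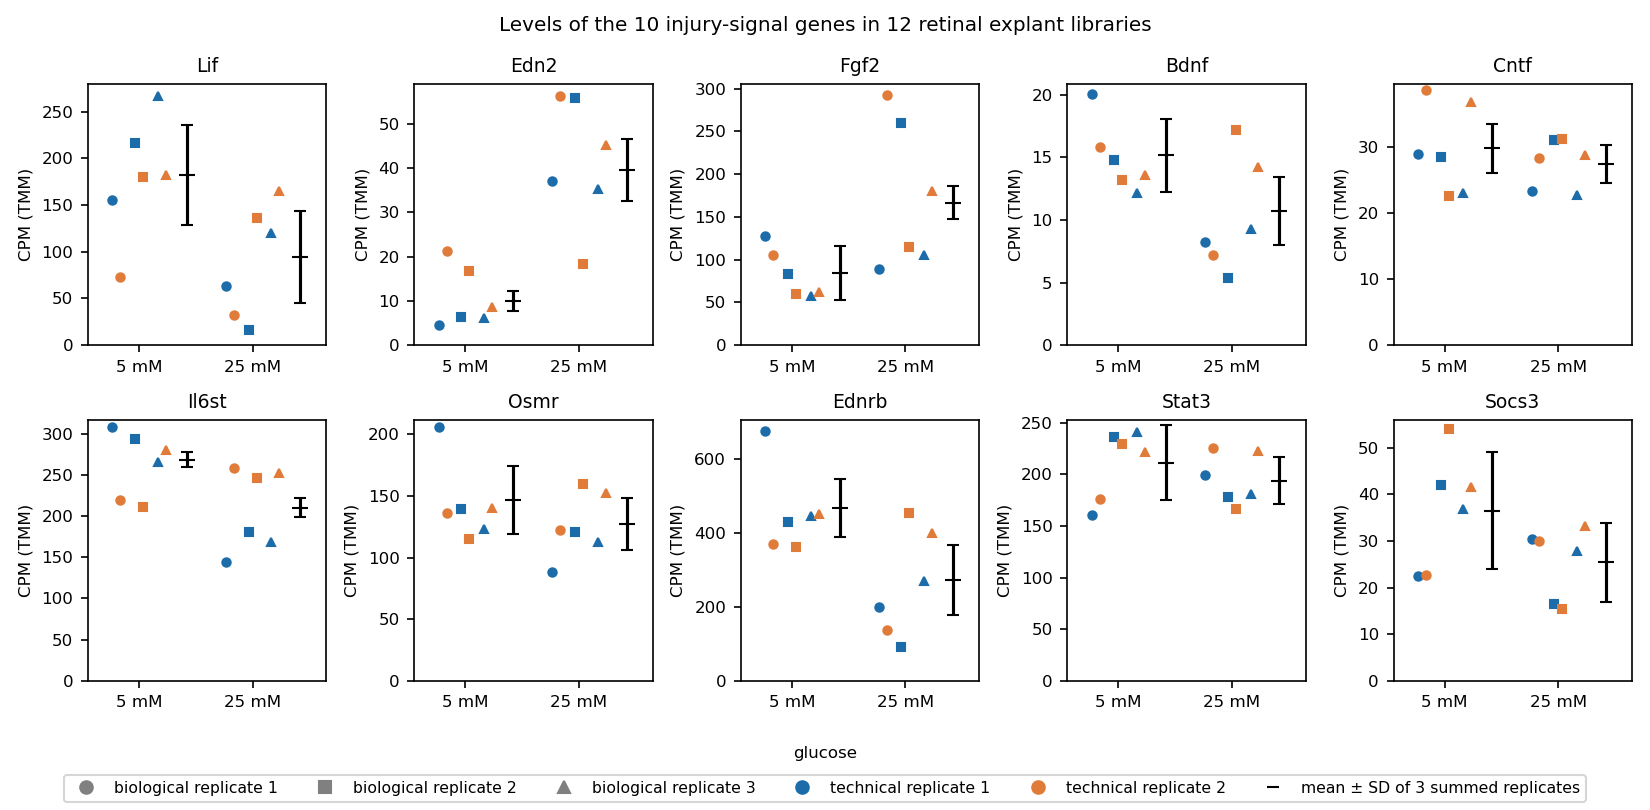
Level of each of the 10 genes in CPM with TMM factors (y axis, from 0) at 5 mM and 25 mM glucose, with 1 point per library; shapes mark biological replicates, colors mark technical replicates, and black bars give the mean ± SD of the 3 summed replicates. In Edn2 the summed replicates lie between 7.36 and 11.6 CPM at 5 mM and between 31.9 and 45.7 CPM at 25 mM, while in Lif, Cntf, Osmr, Stat3 and Socs3 they overlap.

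Edn2 (ENSMUSG00000028635, chromosome 4 of GRCm38, 120161206 to 120167360, plus strand, protein-coding) stood at 11.6, 10.88 and 7.36 CPM in replicates 1, 2 and 3 at 5 mM glucose. At 25 mM it stood at 45.65, 31.91 and 40.88 CPM. Every replicate at 25 mM thus lay above every replicate at 5 mM, and the means were 9.95 ± 2.27 CPM and 39.5 ± 6.97 CPM (SD, n = 3). The log2 fold change was 1.99 (standard error, SE, 0.25, FDR 0.0261, edgeR). The exact permutation test of the CPM values gave a two-sided p of 0.1, below which 3 replicates against 3 cannot go. In retinal tissue as a whole, a change in the share of a cell type and a change in RNA per cell cannot be told apart.

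Among single libraries the separation of Edn2 was not complete. The highest library at 5 mM, technical replicate 2 of replicate 1, held 21.2 CPM, and the lowest at 25 mM, technical replicate 2 of replicate 2, held 18.3 CPM. The log2 fold change was 2.91 in batch 1 (FDR 0.00758) and 1.36 in batch 2 (FDR 0.398, edgeR, in which 0 genes of the table passed and 2203 had an unadjusted p under 0.05). The difference between the batches, fitted over the 12 libraries with a block for each biological replicate, was -1.57 (FDR 0.308, edgeR). Without technical replicate 1 of 25 mM replicate 2 the change was 1.82 and its FDR 0.129, and without technical replicate 2 of 5 mM replicate 1 it was 2.37 with an FDR of 0.0150. The call was also lost when replicate 2 or 3 at 5 mM, or replicate 1 or 2 at 25 mM, was left out (log2 fold change 1.80 to 2.13, FDR 0.101 to 0.159, edgeR).

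The promoter of Edn2 is shown because this gene alone passed the threshold. The 250 bases before its RefSeq start (GRCm38.p6, chr4:120160956-120161205, plus strand, 5′ to 3′) hold no annotated exon base.
Edn2: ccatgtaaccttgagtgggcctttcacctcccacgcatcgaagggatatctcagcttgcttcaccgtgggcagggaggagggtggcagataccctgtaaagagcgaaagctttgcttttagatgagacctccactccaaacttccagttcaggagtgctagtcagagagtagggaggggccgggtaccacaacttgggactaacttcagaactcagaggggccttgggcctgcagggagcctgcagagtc
Motifs were searched on both strands of this window, the STAT motif TTCNNNGAA, the AP-1 motif TGANTCA, the CRE motif TGACGTCA, the E box CACGTG and the hypoxia core ACGTG, which lies within the E box. None of these letters were found in it. Over 32851 promoter windows of the same length, the shares that held them were 7.02%, 6.75%, 1.55%, 6.02% and 16.6%.

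By a rule set on likeness alone, the genes whose log2 CPM ran closest to that of Edn2 over the 12 libraries were Tnnt2 (r = 0.991), Rdh8 (r = 0.985) and Atp7b (r = 0.984), out of 13982 genes searched. The points share the 2 concentrations, the batches and the biological replicates, so that these values are a description. Rdh8, a retinol dehydrogenase of photoreceptor outer segments, had a log2 fold change of 2.10 (FDR 0.0271). Atp7b, a copper transporter, had 2.25 (FDR 0.0261), and Tnnt2, a troponin of heart muscle, had 1.32 (FDR 0.0449, edgeR for the 3 genes).

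Lif (ENSMUSG00000034394, chromosome 11, 4257557 to 4272514, plus strand, protein-coding) stood at 122, 200.5 and 223 CPM at 5 mM glucose. At 25 mM the values were 47.1, 89.4 and 145 CPM. The ranges overlapped, since 25 mM replicate 3 lay above 5 mM replicate 1. The means were 182 ± 53.1 and 94.0 ± 49.3 CPM, with a log2 fold change of -0.95 (SE 0.40, FDR 0.159, edgeR). The exact permutation test gave p = 0.2 (two-sided). In batch 1 the fitted change was -1.68 and in batch 2 it was -0.36, and the difference between them had an FDR of 0.463 (edgeR). Across libraries Lif spread from 72.7 to 266 CPM at 5 mM and from 15.95 to 165 CPM at 25 mM. The genes closest to Lif over the 12 libraries included Egfl7 (r = 0.994) and Maff (r = 0.992). Egfl7 encodes a factor secreted by endothelial cells and Maff a small basic leucine zipper protein.

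Most Lif counts were assigned to a transcript that starts inside the gene. Lif-201, which starts at 4267095, held 72.6 ± 10.9% of the transcript counts of the gene at 5 mM and 82.8 ± 6.2% at 25 mM glucose (SD, n = 3). Lif-202, which starts at 4257557, held 27.1% and 16.9%. These shares are estimates, as both transcripts share most of their sequence, and they were not tested.

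Fgf2 (ENSMUSG00000037225, chromosome 3, 37348346 to 37410108, plus strand, protein-coding) stood at 119.5, 73.2 and 60.1 CPM at 5 mM glucose. At 25 mM it stood at 186, 166 and 147 CPM. All replicates at 25 mM lay above those at 5 mM, with means of 84.3 ± 31.2 and 166 ± 19.3 CPM. The log2 fold change was 0.98 (SE 0.26, unadjusted p = 0.00525 in edgeR), and its FDR of 0.0732 missed the threshold. It was 0.75 in batch 1 (FDR 0.259), where the replicates overlapped. In batch 2, where they did not, it was 1.36 (FDR 0.392, edgeR). Without 5 mM replicate 1, the highest of its group, the change was 1.32 and the FDR 0.0105 (edgeR). With any other replicate left out it was 0.78 to 1.06 and the FDR 0.0761 to 0.226. Without technical replicate 1 of 25 mM replicate 2 the change was 0.83 (FDR 0.180), and the replicates overlapped. Exons of Nudt6 on the opposite strand cover 640 bases (9.4%) of the Fgf2 exons, and another 255 bases (3.8%) are shared with Gm43439, so counts of Fgf2 are uncertain to that extent. Nudt6 itself averaged 4.54 ± 1.51 and 7.96 ± 1.33 CPM. Its log2 fold change was 0.81 (FDR 0.140, edgeR).

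Bdnf (ENSMUSG00000048482, chromosome 2, 109674700 to 109727007, plus strand, protein-coding) stood at 18.5, 14.1 and 12.9 CPM at 5 mM glucose. The values at 25 mM were 7.58, 12.54 and 12.05 CPM. The groups did not overlap, although the lowest value at 5 mM and the highest at 25 mM were close. They overlapped without technical replicate 1 of 25 mM replicate 2, where the fitted change was -0.29, in batch 2 alone, and also with a filter of 1 CPM or with transcript counts summed per gene. The means were 15.2 ± 2.92 and 10.7 ± 2.73 CPM, with a log2 fold change of -0.50 (SE 0.27, FDR 0.257, edgeR). The fitted change was -1.05 in batch 1 and -0.13 in batch 2. Gm45346, an antisense gene, covers 896 bases (14.4%) of the Bdnf exons. Bdnf is transcribed from several promoters, and 6 of its 11 transcripts held at least 5% of its transcript counts. Bdnf-205 had the largest share, 47.0 ± 17.5% at 5 mM and 24.2 ± 12% at 25 mM (SD, n = 3). Bdnf-211 followed, with 12.9 ± 14.8% and 21.4 ± 17.5%. The 12 libraries together held 3576 transcript counts of this gene, and at 5 mM alone the share of Bdnf-211 ranged from 0.0% to 29.1% and that of Bdnf-205 from 26.9% to 58.9%.

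**Figure D2:**
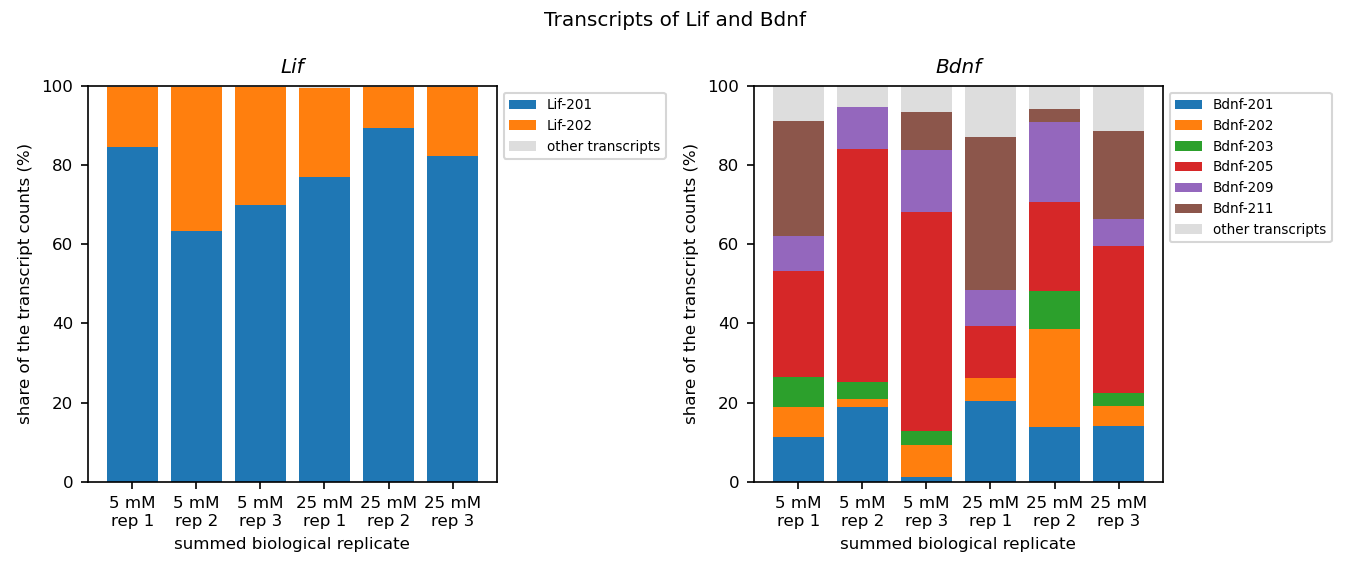
Share of the transcript counts of Lif (left) and Bdnf (right) held by each transcript (y axis, percent, stacked from 0) in each of the 6 summed replicates (x axis). Lif-201 holds 63.4% or more of the Lif counts in every replicate, whereas the shares of the Bdnf transcripts differ widely between replicates of 1 concentration.

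Cntf (ENSMUSG00000079415, chromosome 19, 12763660 to 12765632, minus strand, protein-coding) stood at 33.3, 25.9 and 30.1 CPM at 5 mM and at 25.3, 30.6 and 26.1 CPM at 25 mM glucose. The ranges overlapped. The means were 29.8 ± 3.71 and 27.3 ± 2.85 CPM, with a log2 fold change of -0.12 (SE 0.19, FDR 0.681, edgeR). Of the Cntf exon bases, 847 (78.9%) are also exons of Zfp91 on the same strand, so reads of the 2 genes cannot be separated over most of Cntf. Zfp91 had 262 ± 66.9 and 263 ± 15.1 CPM.

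Among the receptors, Il6st (ENSMUSG00000021756, chromosome 13, 112464070 to 112510086, plus strand, protein-coding), the shared gp130 subunit, had the narrowest spread. It stood at 274, 258 and 274 CPM at 5 mM and at 197, 218 and 215 CPM at 25 mM glucose. The groups did not overlap, with means of 268 ± 9.36 and 210.0 ± 11.5 CPM. The log2 fold change was -0.35 (SE 0.15, unadjusted p = 0.0440 in edgeR), and its FDR was 0.164. The separation was not found in both batches. In batch 1 the change was -0.82 (FDR 0.0264) and in batch 2 it was 0.10, of the opposite sign (FDR 0.818, edgeR). The difference between batches was 0.91 and did not pass after adjustment (FDR 0.199, unadjusted p = 0.00572 in edgeR).

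Osmr (ENSMUSG00000022146, chromosome 15, 6813577 to 6874969, minus strand, protein-coding) stood at 178, 129 and 132 CPM at 5 mM and at 103, 143 and 135 CPM at 25 mM glucose. The ranges overlapped, and the log2 fold change was -0.21 (SE 0.20, FDR 0.511, edgeR). As in Il6st, the sign differed between batches, with -0.55 in batch 1 and 0.16 in batch 2. The difference between the batches had an FDR of 0.257 (edgeR). Transcript shares of both receptors stayed close between the concentrations, with Il6st-201 at 64.9% and 62.6% and Osmr-201 at 89.2% and 86.5%.

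Ednrb (ENSMUSG00000022122, chromosome 14, 103814625 to 103844402, minus strand, protein-coding), the receptor for endothelins, stood at 553.5, 400.4 and 449 CPM at 5 mM glucose. At 25 mM it stood at 165.5, 312 and 342 CPM. Every replicate at 25 mM lay below every replicate at 5 mM, the opposite order to that of its ligand Edn2. The means were 468 ± 78.2 and 273 ± 94.4 CPM, with a log2 fold change of -0.78 (SE 0.28, FDR 0.126, edgeR). The fitted change was -1.48 in batch 1 (FDR 0.0358) and -0.24 in batch 2 (FDR 0.796, edgeR). Among single libraries the groups overlapped, with 362.9 to 676 CPM at 5 mM and 90.5 to 454 CPM at 25 mM. Without technical replicate 1 of 25 mM replicate 2 the fitted change was -0.53 (FDR 0.394, edgeR), and the replicates overlapped.

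The log2 ratio of Edn2 to Ednrb was -5.58, -5.20 and -5.93 in the replicates at 5 mM and -1.86, -3.29 and -3.06 at 25 mM glucose. Its means were -5.57 ± 0.36 and -2.74 ± 0.77. Since every replicate of Edn2 lay higher and every replicate of Ednrb lower at 25 mM, this ratio had to be higher there and is not a further result. The ratio of Lif to Il6st overlapped between the concentrations (-0.61 ± 0.48 and -1.30 ± 0.75). So did that of Socs3 to Stat3, at -2.58 ± 0.29 and -2.99 ± 0.38. These ratios are of CPM on the log2 scale and carry no test of their own.

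Stat3 (ENSMUSG00000004040, chromosome 11, 100885098 to 100939540, minus strand, protein-coding) stood at 169, 234 and 231 CPM at 5 mM and at 208, 168 and 205 CPM at 25 mM glucose. The ranges overlapped. The log2 fold change was -0.12 (SE 0.19, FDR 0.684, edgeR), with -0.20 in batch 1 and -0.02 in batch 2. The level of Stat3 RNA does not measure the phosphorylation of the protein.

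Socs3 (ENSMUSG00000053113, chromosome 11, 117966079 to 117970047, minus strand, protein-coding) stood at 22.8, 47.3 and 39.4 CPM at 5 mM and at 29.65, 15.6 and 30.9 CPM at 25 mM glucose. The ranges overlapped, since 5 mM replicate 1 lay below 2 of the replicates at 25 mM. The log2 fold change was -0.52 (SE 0.34, FDR 0.331, edgeR), -0.45 in batch 1 and -0.58 in batch 2. Technical replicates of Socs3 were at 16.4 and 15.5 CPM in 25 mM replicate 2. They differed most in 5 mM replicate 2, at 42.1 and 54.0 CPM. The genes closest to Socs3 over the 12 libraries were Tmcc2 (r = 0.977), Gtf2h3 (r = 0.972) and Stx1a (r = 0.971), none of which passed the threshold (FDR 0.197 to 0.594, edgeR).

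Because STAT3 induces Socs3 and AP-1 factors are known to act in injury responses, both STAT matches and the AP-1 match of Lif are printed. RefSeq gave 16 promoter windows for the 10 genes, 7 of them for Bdnf. The STAT motif was present for 2 genes (Socs3 and Bdnf) and the AP-1 motif for 3 (Lif, Bdnf and Cntf). Over the 32851 promoter windows, 7.02% held the STAT motif and 6.75% the AP-1 motif. These shares are per window, so Bdnf, counted for both motifs, had more chances of a match with its 7 windows. The AP-1 matches that are not printed begin 152 bases upstream of another Bdnf start and 245 bases upstream of Cntf. Each line gives 20 bases on either side of the motif in capitals, 5′ to 3′ on the strand of the gene (GRCm38.p6).
Socs3, STAT motif, chr11:117969492-117969540, minus strand: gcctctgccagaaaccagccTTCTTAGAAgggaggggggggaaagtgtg
Bdnf, STAT motif, chr2:109674558-109674606, plus strand: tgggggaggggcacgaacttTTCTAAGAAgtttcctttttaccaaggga
Lif, AP-1 motif, chr11:4257320-4257366, plus strand: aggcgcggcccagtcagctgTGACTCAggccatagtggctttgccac
Counted from the RefSeq starts of these windows, the motif begins 154 bases upstream in Socs3, 122 in Bdnf and 228 in Lif. The RefSeq start of this Bdnf window is also that of Bdnf-201, which held 12.5% of the Bdnf transcript counts. Bdnf-205, with the largest share (37.0%), starts at 109693563, and none of the windows covers the bases just before that start. The RefSeq start of Lif lies near that of Lif-202, the less counted Lif transcript, and the Socs3 motif lies inside the span that GENCODE gives the gene. Socs3-201, which held 99.2% of the Socs3 transcript counts, starts at 117969186. That is downstream of the RefSeq start used here, so the motif lies further upstream of this transcript. The bases between these Socs3 starts were not searched. None of the 3 stretches contains an annotated exon base. These matches are a description of letters in the windows and were not tied to binding.

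**Figure D3:**
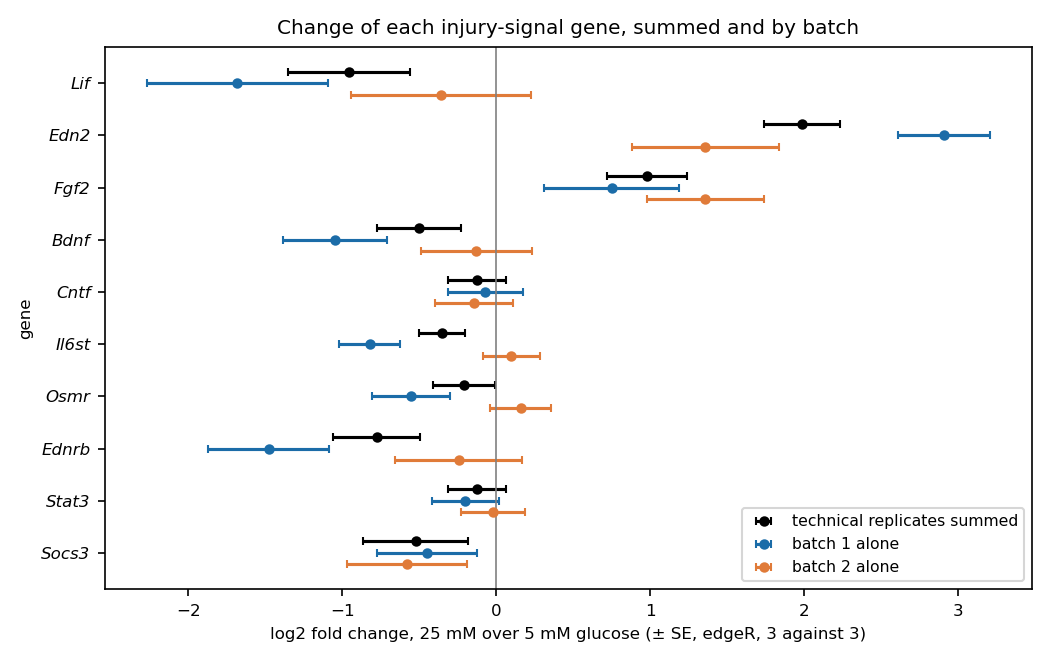
Log2 fold change of each of the 10 genes, 25 mM over 5 mM glucose (x axis; points with bars of ± 1 standard error from edgeR, 3 replicates against 3), for summed technical replicates (black), batch 1 (blue) and batch 2 (orange). Edn2 and Fgf2 lie above 0 in both batches, Il6st and Osmr lie on opposite sides of 0, and the other 6 genes lie below 0 in both.

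In the plot of changes by batch, batch 2 gave the smaller fitted change for all genes apart from Fgf2, Cntf and Socs3. Over the 18725 genes of the fit that tested this difference, 0 passed an FDR of 0.05 and 3056 had an unadjusted p under 0.05 (edgeR). For the 10 genes the FDR of the difference lay between 0.199 and 0.943.

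Levels of different genes were compared per kilobase of exon, as CPM per kb. The length was that of all annotated exons of a gene merged, which can exceed that of the transcript with most counts. For Il6st it was 11099 bases against 5207 in Il6st-201, and for Osmr 12113 against 5491 in Osmr-201. For Stat3 it was 9527 against 4516 in Stat3-203. The orders below, and which neighbours overlap, hold for the merged length only. At 5 mM glucose the order was Ednrb (110 ± 18.3), Lif (41.8 ± 12.2), Cntf (27.8 ± 3.46), Il6st (24.2 ± 0.843), Stat3 (22.2 ± 3.85), Socs3 (12.6 ± 4.33), Fgf2 (12.4 ± 4.60), Osmr (12.1 ± 2.27), Edn2 (6.80 ± 1.55) and Bdnf (2.44 ± 0.469). Ednrb stood above Lif in every replicate, and Edn2 stood above Bdnf in every replicate. Other neighbours in this order overlapped, apart from Stat3 and Socs3 and from Osmr and Edn2, whose replicates were separate. At 25 mM glucose Ednrb remained first (64.0 ± 22.1), and Edn2 followed it (27.0 ± 4.77). Next came Cntf (25.5 ± 2.66), Fgf2 (24.5 ± 2.85), Lif (21.6 ± 11.3), Stat3 (20.4 ± 2.35) and Il6st (18.9 ± 1.04). Each of the genes from Edn2 to Il6st overlapped the next in this order. Osmr (10.5 ± 1.75), Socs3 (8.78 ± 2.95) and Bdnf (1.73 ± 0.439) were lowest, and all replicates of Osmr lay below those of Il6st. The place of Cntf in both orders rests on exons that it shares with Zfp91.

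The other genes of these pathways were taken from fixed lists, of which 87 genes beside the 10 are reported. Among these 87, Stat2 was the one that passed an FDR of 0.05. It encodes a STAT protein best known for carrying interferon signals. Stat2 rose from 60.0 ± 7.11 to 124 ± 30.3 CPM (log2 fold change 1.04, SE 0.21, FDR 0.0498, edgeR). The list held 17 JAK-STAT genes, whose median log2 fold change was -0.26, 6 genes being fitted higher and 11 lower. The call of Stat2 was lost when libraries were scaled by their totals, with limma-voom, with a replicate block and in batch 2. It was also lost without technical replicate 1 of 25 mM replicate 2, and when replicate 2 or 3 at 5 mM, or replicate 1 or 2 at 25 mM, was left out. As lower, 4 of the 17 passed in batch 1 and 5 with DESeq2. Over all genes, these settings gave 3279 of 18969 and 3285 of 35128 that passed in either direction. Ptpn2, a phosphatase that acts on JAK and STAT proteins, was at 0.54 (FDR 0.144). At the other end of this list, Ptpn6 was at -1.46 (FDR 0.161) and Stat6 at -1.30 (FDR 0.0768).

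Other ligands of the gp130 family gave 0 of 9 genes past the threshold, with a median of -0.45. Il11, another cytokine of this family, averaged 202 ± 54.5 and 85.3 ± 60.0 CPM at 5 and 25 mM glucose (log2 fold change -1.25, FDR 0.213). Il6 averaged 244.5 ± 68.8 and 168 ± 121 CPM (-0.54, FDR 0.592). Clcf1 was at -0.12 and Ctf1 at 0.16. The values of Il6 at 25 mM spread from 28.3 to 245 CPM. Of the receptors, Lifr, the subunit that binds LIF, averaged 51.6 ± 10.2 CPM at 5 mM and 92.5 ± 11.7 CPM at 25 mM. Its replicates did not overlap, and its log2 fold change of 0.84 (SE 0.19) missed the threshold with an FDR of 0.0609 (edgeR). Il27ra was at -1.78 and Il6ra at -1.02, while Il11ra1 was at -0.01, and 0 of the 5 receptors passed.

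The 17 genes listed as STAT3 targets, which include Il6st, Osmr, Stat3 and Socs3, were all fitted lower at 25 mM glucose (median -0.52). None of them passed the FDR threshold, and 6 had an unadjusted p under 0.05 (edgeR), where the share over all genes was 28.7%. As lower, 5 passed in batch 1, 5 without 5 mM replicate 1 and 3 with DESeq2, while 0 passed in batch 2. Over all genes, these settings gave 3279, 5845, 3285 and 0 that passed in either direction. The same 17 of 17 were fitted lower with RLE size factors and with library totals, but in batch 2 alone 12 were lower and 5 higher (median -0.31). Cebpb, a transcription factor of the acute phase response, averaged 8.06 ± 1.44 and 3.21 ± 1.52 CPM (-1.33, FDR 0.0889). Junb, a subunit of AP-1, averaged 9.47 ± 5.19 and 3.84 ± 1.63 CPM (-1.30, FDR 0.124).

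In the rest of the endothelin system, 5 of 7 genes were tested and 0 passed, with a median of -0.69. Ece1, the enzyme that cleaves big endothelins to their active form, averaged 154 ± 72.1 CPM at 5 mM and 39.8 ± 21.3 CPM at 25 mM (log2 fold change -1.96, FDR 0.0681). Ednra, the endothelin receptor type A of smooth muscle, averaged 52.9 ± 11.5 and 18.2 ± 9.85 CPM (-1.54, FDR 0.0750). Neither gene overlapped between the concentrations. Edn1 was at -0.51 and Ece2 at 0.10. Kel had 0 counts in all libraries. Thus 4 of these 5 genes were fitted lower while Edn2 rose, and that contrast was not itself tested.

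The downstream feedback genes of FGF and ERK signalling were fitted lower in 12 of 13 cases, although the ligand Fgf2 was fitted higher. The median was -0.94, and 10 of the 13 had an unadjusted p under 0.05 while 0 passed the FDR threshold (edgeR). Over all genes tested, 28.7% had such a p. Spry1, an inhibitor of receptor tyrosine kinase signalling, averaged 18.6 ± 5.62 and 6.51 ± 2.32 CPM (-1.52, FDR 0.0597), Etv4 was at -1.50 (FDR 0.102), Spred3 at -0.33 and Spry2 at 0.11. The median was -1.5 in batch 1, where 7 genes passed as lower, and -0.29 in batch 2, where 0 passed. As lower, 8 passed with DESeq2, 8 without 5 mM replicate 1, 6 without a filter and 4 with a replicate block. Over all genes, these settings gave 3285 of 35128, 5845 of 21945, 1979 of 35141 and 990 of 21061 that passed in either direction. Batch 1 gave 3279 of 18969 and batch 2 gave 0 of 18811. Without 5 mM replicate 2 or 3, 0 passed. Of the FGF ligands and receptors, 14 of 18 were tested and 0 passed (median -0.61). Fgf7 was at -1.35 (FDR 0.0737), Fgfr2 at -0.94, Fgf1 at -0.06 and Fgf9 at 0.21. Of the neurotrophin and GDNF family genes, 11 of 15 were tested and 0 passed (median -0.29). Gdnf was at -0.71, Ntrk2, the receptor of BDNF, at -0.66, Ntrk3, a neurotrophin receptor, at 0.05 and Ret, the receptor of GDNF, at 0.40.

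**Figure D4:**
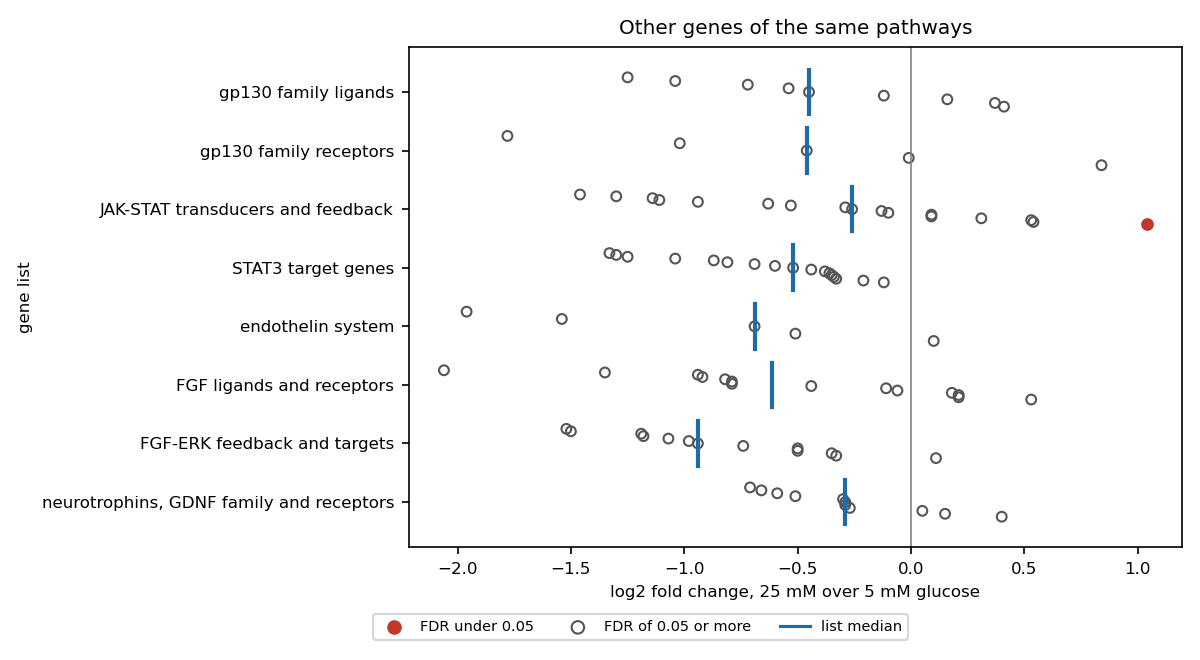
Log2 fold change (x axis, 25 mM over 5 mM glucose) of each tested gene of the 8 pathway lists (y axis), with filled red points for an FDR under 0.05, open points for the rest and a blue line at the list median. Stat2 is the filled point, and all 8 medians lie below 0, from -0.94 to -0.26.

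Cell type markers were measured in the same libraries. Rod markers summed to 1843 to 2467 CPM at 5 mM and 4161 to 4723 CPM at 25 mM, with 5 of 9 genes past the threshold as higher and a median log2 fold change of 1.13. Over all genes tested, 1.47% passed as higher (edgeR). Of the rod markers, 0 passed in batch 2 alone or without technical replicate 1 of 25 mM replicate 2. The same held when replicate 2 or 3 at 5 mM, or replicate 1 or 2 at 25 mM, was left out. In each of these settings 0 of all genes passed, and all 9 rod markers were fitted higher. Endothelial markers summed to 1184 to 2112 CPM at 5 mM and 447 to 957 CPM at 25 mM, with 8 of 8 fitted lower (median -1.54; batch 1 alone -2.61, batch 2 alone -0.48). Pericyte markers, with 6 of 7 fitted lower, summed to 394 to 504 and 243 to 413 CPM. Microglia markers, with 9 of 9 fitted lower, summed to 319 to 413.5 and 127.5 to 249.6 CPM. Of these 3 vascular and immune lists 0 genes passed the FDR threshold, and 7, 6 and 6 had an unadjusted p under 0.05 as lower (edgeR). Over all genes tested, 28.7% had such a p in either direction. As lower, 7, 6 and 4 passed the FDR threshold in batch 1 and 6, 6 and 5 with DESeq2, while 0 passed in batch 2. Over all genes, these settings gave 3279 of 18969, 3285 of 35128 and 0 of 18811 that passed in either direction.

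Müller glia markers summed to 3267 to 4396 CPM at 5 mM and to 2156 to 3069 CPM at 25 mM, with a median of -0.19, 6 of 10 fitted lower and 0 past the threshold. Most of the difference in these sums was Vim, an intermediate filament gene, at 1892 ± 544 and 663 ± 235 CPM (-1.51, FDR 0.0555). Also fitted lower were Apoe (-1.32, FDR 0.105), Dkk3 (-0.42, FDR 0.133), Glul (-0.35), Rlbp1 (-0.33) and Sox9 (-0.06, edgeR). Slc1a3, Aqp4, Kcnj10 and Abca8a were fitted higher (0.35 to 0.87). Vim and the genes set beside it were named after their values were seen. Astrocyte markers summed to 328 to 564 and 351.5 to 374 CPM, most of it Gfap (397 and 314 CPM). All 5 were fitted lower, with a median of -0.72. Of these astrocyte markers, 3 had an unadjusted p under 0.05 and replicates that did not overlap, while 0 passed the threshold (edgeR). Over all genes tested the shares were 28.7% for such a p and 31.8% for replicates that did not overlap. Ganglion cell markers summed to 196 to 280 and 200.2 to 241 CPM, with a median of 0.12. No marker was at 0. The part of these marker levels in the values of Edn2, Ednrb, Lif, the endothelin system and the FGF feedback genes was not tested.

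**Figure D5:**
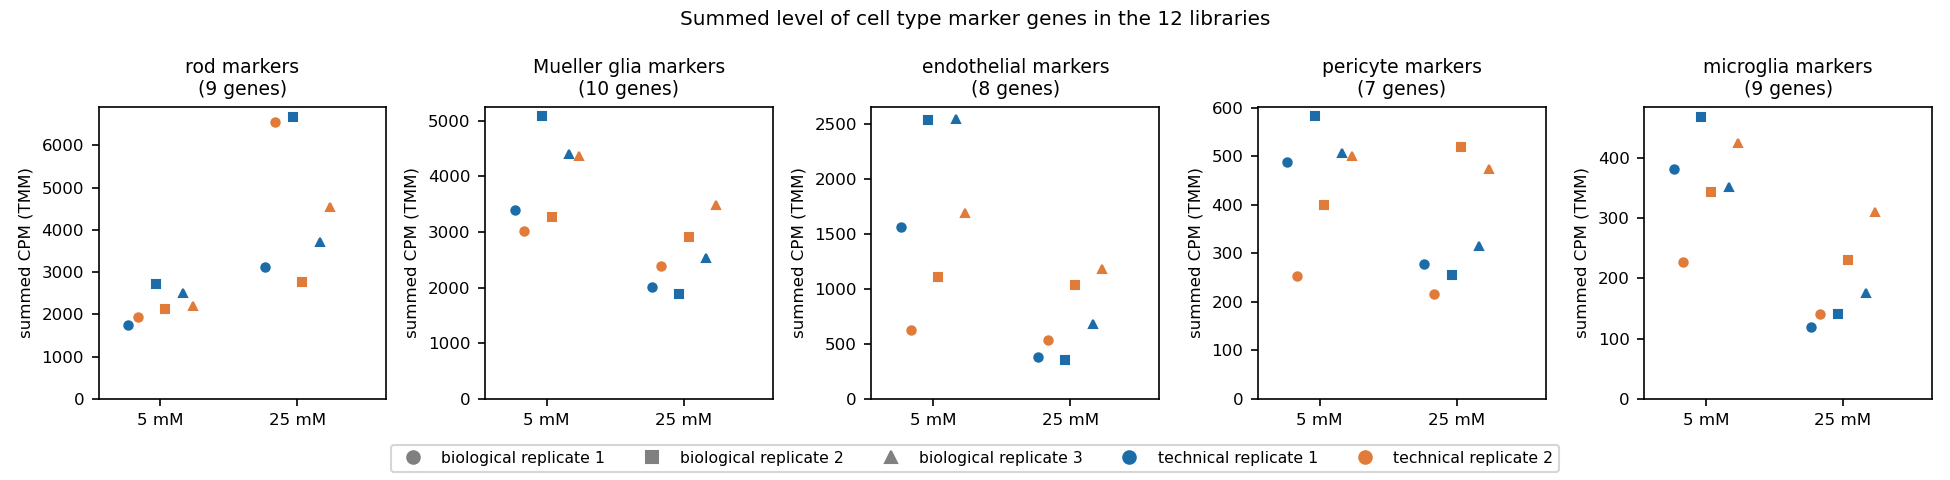
Summed level of cell type markers in CPM (y axis, from 0) for 5 lists at 5 mM and 25 mM glucose, with 1 point per library, shapes for biological and colors for technical replicates. Rod sums reach 2719 CPM at 5 mM and start at 2760 CPM at 25 mM, so that the libraries do not overlap, while in the other 4 lists single libraries of the concentrations overlap.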

How the data were processed

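RNA-seq of the 12 explant libraries was used, and the CUT&Tag and 2-DG experiments were left out (not analysed here). For RNA, the authors deposited expected counts (estimated counts, not normalized between libraries) for 53707 genes and 146263 transcripts. Reads were aligned to GRCm38 per the submitters' processing notes. The counting tool, the annotation and whether strand was used are not given in the sources used here, so genes with overlapping exons were marked as uncertain. The kit was a stranded one for small amounts of total RNA with PCR amplification, so read pairs are not independent molecules and depth limits counting error only.

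The 2 technical replicates were summed and rounded to whole numbers. edgeR 4.0.16 (R 4.3.3) was used with filterByExpr, TMM factors and the quasi-likelihood test of version 3, without a block, 3 against 3, with Benjamini-Hochberg adjustment over 21061 genes; exact permutation tests were run for single values. The procedure was tested on simulated data. Positions, exons and transcripts came from GENCODE M21 and promoters from RefSeq (GRCm38.p6). Log2 CPM used a prior count of 2. Alternatives were other normalizations and filters, DESeq2 1.42.0, limma-voom (limma 3.58.1), transcript sums, single batches, a replicate block, and libraries or replicates left out. Tables and plots were made in Python 3.11.15 (pandas 2.3.3, matplotlib 3.10.9, scipy 1.17.1).

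The 10 genes and the lists were chosen with earlier results of these data known. Named beside the 10 were list genes with an FDR under 0.05, the 2 highest and 2 lowest log2 fold changes of each list among genes with a mean of at least 1 CPM, and, for Lif, Edn2 and Socs3, the 3 most alike genes; results of some listed or alike genes are not reported here, and those genes were left out of the list counts and sums.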

Additional observations from a re-analysis of the deposited data

Results flagged for a closer look

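In each of the 10 genes, the highest and the lowest of the 6 libraries at a concentration were compared with the nearest of the others. A library stood far apart in 2 of the 20 groups examined, where chance gives about 1. Osmr stood at 205.7 CPM in technical replicate 1 of 5 mM replicate 1, and the gap to the next library was 0.7195 of the range of the group. Ednrb stood at 675.7 CPM in the same library, with a gap of 0.7182 of the range, both past the critical value of Dixon's test. That library had the largest total, 36692484 counts. The libraries include technical replicates and are not independent, and both genes were measured in the same library.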

How the results depend on the processing

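Over 19 other settings for each of the 10 genes, 175 of 190 log2 fold changes kept their direction and their side of the 0.05 FDR threshold; 7 passed it where the reported test did not, 6 no longer passed (all Edn2) and 2 had the other sign, Il6st at 0.10 and Osmr at 0.16, both in batch 2 alone. Edn2 ranged from 1.36 to 2.91 with an FDR under 0.05 in 13 of 19 settings, and Fgf2 from 0.75 to 1.36 with 4 of 19 (FDR 0.0105 to 0.392). Genes with an FDR under 0.05 numbered 417 as reported, and 1979 without a filter on low counts, 3285 with DESeq2, 3279 in batch 1, 0 in batch 2, 1731 without technical replicate 2 of 5 mM replicate 1 and 0 without technical replicate 1 of 25 mM replicate 2 (edgeR unless named; unadjusted p under 0.05 in 2203 genes in batch 2 and 4406 in the last). With one biological replicate left out at a time they ranged from 0 to 5845, the highest without 5 mM replicate 1; where the count was 0, between 3813 and 4071 genes had an unadjusted p under 0.05. At the stricter threshold 0 genes became 275 without a filter, 367 in batch 1, 56 without technical replicate 2 of 5 mM replicate 1, 1447 with DESeq2 and 0 to 108 with a replicate left out. Of the 10 genes, 2 passed without a filter, 3 in batch 1, 2 with DESeq2, 0 in batch 2, 0 without technical replicate 1 of 25 mM replicate 2 and 0 to 2 with a replicate left out. Replicates of 5 genes did not overlap, a count added after seeing the data. It was 1 in batch 2, where 3037 of 18811 genes tested did not overlap. Without technical replicate 1 of 25 mM replicate 2 it was 2, beside 5447 of 20898 genes. With a replicate left out it was 5 to 8, beside 7785 of 21820 to 13787 of 21945 genes. The 8 and the 13787 both came from the fit without 5 mM replicate 1. The cause of these differences was not tested.

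With the replicate number as a block, 990 genes and 3 of the 10 had an FDR under 0.05: Edn2, Lif (-1.05, FDR 0.0446) and Fgf2 (1.04, FDR 0.0433). The numbers were not taken to pair the samples: same-numbered replicates had correlations of their deviations of 0.028, -0.638 and 0.439, and 5 mM replicate 1 correlated best with 25 mM replicate 2 (0.636).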
